A study of Caenorhabditis elegans with 12 samples.

Results

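The nuclear genes of oxidative phosphorylation were followed across RNAi against 3 subunits of the vacuolar H+-ATPase in Caenorhabditis elegans. They were chosen by name: a symbol that begins with nuo, sdha, sdhb, sdhd, cyc, ucr, cox, atp, asb or asg and a number, or gas-1, lpd-5, mev-1, isp-1 or hpo-18, with atp-6 of the mitochondrial genome left out. This gave 34 of the 18467 genes in the count table. They comprise 8 genes of complex I, 5 of complex II, 6 of complex III, 2 of cytochrome c, 4 assembly factors of complex IV and 9 of complex V. No structural subunit of complex IV is among them, because the table lists those under other names.

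Oxidative phosphorylation runs in the inner mitochondrial membrane. Complexes I and II pass electrons from NADH and succinate to ubiquinone, complex III passes them on to cytochrome c, and complex IV passes them to oxygen. Complexes I, III and IV pump protons, and complex V, the ATP synthase, uses the gradient to make ATP. In worms the muscle, the germ line and the early embryo depend heavily on this pathway, and partial loss of several of its subunits is known to change lifespan.

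All worms were of the wild-type N2 strain, and all were fed RNAi bacteria. The groups were vha-6 RNAi, vha-16 RNAi, vha-19 RNAi and control RNAi, with 3 libraries each. In the vha groups 25% of the food was bacteria for the target and 75% was control bacteria. Feeding began at the first larval stage, L1, and lasted 2.5 days at 20 °C, after which whole worms at the L4 to young adult stage were taken for polyA-enriched RNA sequencing. The V-ATPase acidifies lysosomes and other compartments; vha-6 encodes a subunit known from the intestine, vha-16 one of the membrane sector, and vha-19 an accessory one. The labels do not say whether libraries came from separate cultures, so the spread behind each p-value is that of these libraries and may be technical.

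Each library held 21981854 to 22553227 counts in genes. Each target was lower under its own RNAi, at 23.4% of its control level for vha-6, 61% for vha-16 and 46.3% for vha-19. The other targets moved too: under vha-6 RNAi vha-16 was at 197% and vha-19 at 166%, with vha-16 RNAi vha-6 was at 31.7% and vha-19 at 67.8%, and with vha-19 RNAi vha-6 was at 28.8% and vha-16 at 85.8%. These values rest on the TMM scaling described next. With library totals vha-6, vha-16 and vha-19 were at 31.8%, 87.5% and 67.5% under their own RNAi, vha-16 turned to 125% in the vha-19 group, and vha-19 was not called in the vha-16 group. Levels below are in CPM, counts scaled to a common library size by edgeR's TMM method, whose factors were 1.05 to 1.12 in the vha libraries and 0.763 to 0.775 in the control libraries. Yolk protein genes stood far apart in the controls: vit-6 was at 3487 ± 198 CPM under vha-6 RNAi, 1932 ± 95.4 with vha-16 RNAi and 1699 ± 144 with vha-19 RNAi, against 39406 ± 469.7 under control RNAi (SD, n = 3 each). Scaling by library totals in place of TMM raised the median log2 fold change of all genes by 0.45, 0.52 and 0.54 in the vha-6, vha-16 and vha-19 comparisons with control, and the share of higher among all calls was 63.9%, 65.2% and 65.3% with totals, in place of 53.6%, 53.39% and 53% with TMM. A direction that turns with library totals is named where it is given.

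Most transcripts of the pathway were about as low under vha-16 as under vha-19 RNAi, well below control, while under vha-6 RNAi the fall was smaller and turned to a small rise of the median with library totals. Under vha-6 RNAi, 26 of the 34 genes were lower than in controls, 4 were higher and 4 were not called (edgeR's quasi-likelihood test, adjusted p under 0.05), where 41.4% of all 17043 genes tested were lower and 47.9% higher; with library totals 12 were lower and 18 higher, and where genes under a mean of 5 CPM were left out 19 of 33 tested were lower and 12 higher. Under vha-16 RNAi 33 were lower and 1 higher, where 41.9% and 48% of all genes were. Under vha-19 RNAi the counts were also 33 and 1, where 42.2% and 47.7% of all genes were. The median log2 fold change of the 34 genes was -0.34 under vha-6 RNAi, -1.12 with vha-16 RNAi and -1.09 with vha-19 RNAi, and that of all genes was 0.24, 0.20 and 0.19. With library totals the medians of the 34 genes were 0.11, -0.60 and -0.54.

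A 2-fold or larger fall was called for 7 genes under vha-6 RNAi (22.7% of all genes), 20 in the vha-16 group (24.8%) and 21 in the vha-19 group (24.9%). With library totals these counts were 3 (12.5% of all genes), 5 (13.8%) and 5 (13.2%). Where genes under a mean of 5 CPM were left out they were 3 (19.3% of all genes), 13 (22%) and 11 (22%) of 33. In all 3 comparisons 26 of the 34 were lower, where 36.5% of all genes were, and 1, cyc-2.2, was higher, where 40.2% were. The shared count of lower genes cannot exceed the count lower under vha-6 RNAi. That count was 12 with library totals, and 19 of 33 where genes under a mean of 5 CPM were left out. The 3 comparisons share the same control libraries. Set against the median of all genes, the median of the 34 lay lower by 0.57 on the log2 scale under vha-6 RNAi, and by 0.14 where genes under a mean of 5 CPM were left out. A change of scaling moves both medians alike and so cannot change this difference. All 34 genes passed the filter on low counts, and all 34 differed among the 4 groups (edgeR's test of any difference), as did 95.1% of all genes.

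**Figure D1:**
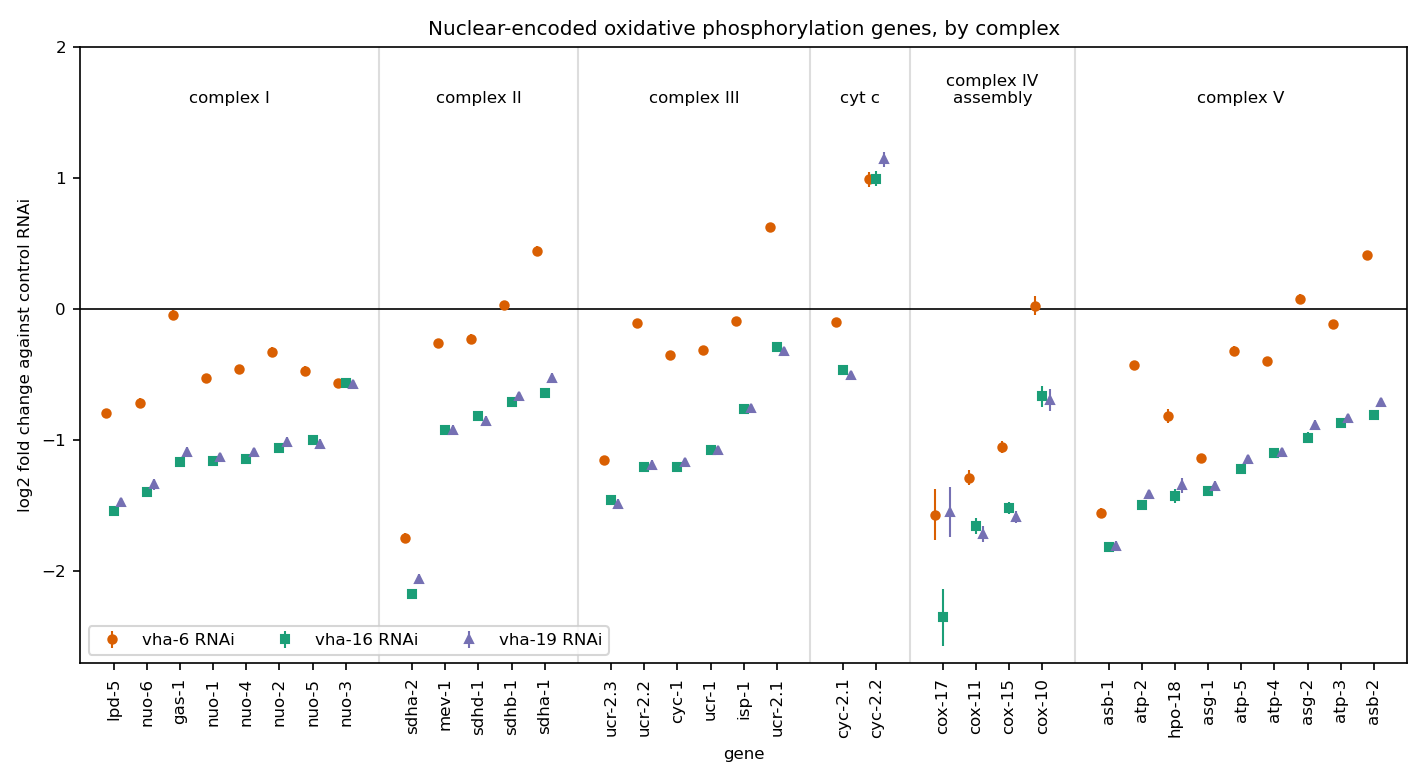
Log2 fold change of each of the 34 genes against control RNAi (vertical axis) in the vha-6, vha-16 and vha-19 groups, grouped by complex. Points are edgeR estimates and bars their SE, derived from the fit over all 12 libraries, 3 a group. Most vha-16 and vha-19 points lie together near -1, with vha-6 points above them, and cyc-2.2 is the gene above 0 in all 3; with library totals 13 of the vha-6 points turn from below to above 0.

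Summed over the 34 genes, the pathway took 0.969% ± 0.0061 of all gene counts under vha-6 RNAi, 0.586% ± 0.0046 with vha-16 RNAi and 0.613% ± 0.0053 with vha-19 RNAi, against 0.894% ± 0.0081 under control RNAi (SD, n = 3 each). These shares are of unscaled library totals. They place vha-6 RNAi above control and the other treatments below it, by more than the spread within groups. With TMM the order of vha-6 RNAi and control turns: the sums were 9198 to 9298 CPM under vha-6 RNAi, against 11479 to 11818 CPM in controls. The cytochrome c share was above control in the vha-16 and vha-19 groups too, at 0.0392% and 0.0393% against 0.0357%. Complex V held the largest part, with 0.492% ± 0.0021 under vha-6 RNAi, 0.270% ± 0.0044 with vha-16 RNAi and 0.288% ± 0.0044 with vha-19 RNAi, against 0.465% ± 0.0059 under control RNAi. The assembly factors of complex IV held 0.00781% ± 0.00018, 0.00587% ± 0.00017 and 0.00579% ± 0.00032 in the same vha groups, against 0.0113% ± 0.0001 in controls, so that all vha groups lay below control there. All vha groups also lay below control for complex I, with 0.144%, 0.0998% and 0.103% against 0.147%.

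**Figure D2:**
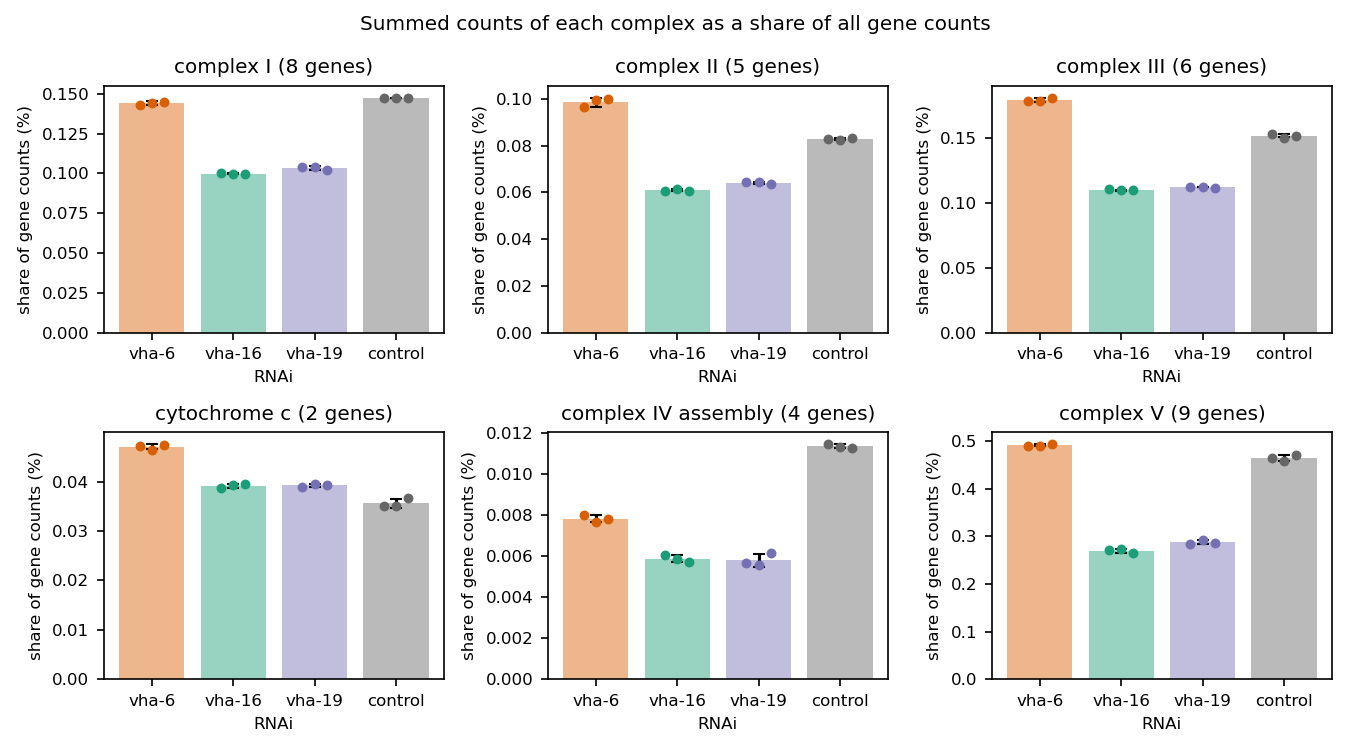
Summed counts of the genes of each complex as a percentage of all gene counts in a library (vertical axes, each from 0), by RNAi group; bars are means, error bars the SD and points the 3 libraries. On this unscaled share the vha-16 and vha-19 bars lie below control for complexes I, II, III, IV assembly and V. The vha-6 bar lies above control for complexes II, III and V and cytochrome c, below it for the assembly factors and slightly below it for complex I. For cytochrome c the vha-16 and vha-19 bars also lie above control.

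Per length of exon, the levels spanned a wide range. Under control RNAi atp-2 stood highest, at 1589.7 ± 35.7 CPM per kb, followed by atp-5 at 841 ± 22.8 and cyc-2.1 at 816 ± 28.3, which lay within their spread of each other. The lowest were cyc-2.2 at 35.5 ± 0.171, cox-17 at 9.88 ± 0.782 and cox-10 at 8.39 ± 0.707 CPM per kb (SD, n = 3 each). The 3 highest genes held the same places under vha-6 RNAi apart from the exchange of atp-5 and cyc-2.1, with atp-2 at 1186 ± 7.75, cyc-2.1 at 762 ± 8.94 and atp-5 at 676 ± 13.1 CPM per kb. With vha-16 RNAi cyc-2.1 stood above atp-2, at 591 ± 5.09 against 564 ± 5.59 CPM per kb. With vha-19 RNAi atp-2 was at 599.8 ± 8.05 and cyc-2.1 at 575 ± 4.99 CPM per kb.

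Complex I was lower in the vha-16 and vha-19 groups, while its values under vha-6 RNAi depend on the scaling. Of the 8 genes 7 were lower under vha-6 RNAi, with gas-1 not called, and all 8 in the vha-16 and vha-19 groups. With library totals 4 were lower and 2 higher under vha-6 RNAi: gas-1 and nuo-2 turn to 0.40 and 0.12 and are called, nuo-4 and nuo-5 are not called, and the median is -0.05. The medians were -0.50, -1.15 and -1.09 in that order of treatments. lpd-5, an accessory subunit, fell most of the 8. It had 96.3, 97.0 and 95.01 CPM under vha-6 RNAi, 58.3, 57.0 and 56.1 CPM under vha-16 RNAi and 60.9, 59.3 and 59.4 CPM under vha-19 RNAi, against 166, 166 and 167 CPM under control RNAi. No control library overlapped a vha library. Its log2 fold changes were -0.79 ± 0.03, -1.54 ± 0.04 and -1.47 ± 0.04 in the vha-6, vha-16 and vha-19 groups (SE), with edgeR adjusted p of 2.58e-21, 3.32e-29 and 1.00e-28.

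gas-1, on the X chromosome, encodes a core subunit next to the quinone site. It had 151, 156 and 149.6 CPM under vha-6 RNAi, 67.2, 70.3 and 71.9 CPM under vha-16 RNAi and 73.1, 74.9 and 73.1 CPM under vha-19 RNAi, against 158, 156 and 156 CPM under control RNAi. The vha-6 and control libraries overlapped, and the log2 fold change of -0.04 ± 0.03 was not called (edgeR adjusted p = 0.24), but it is 0.16 and called where genes under a mean of 5 CPM were left out. It was -1.17 ± 0.04 in the vha-16 group and -1.09 ± 0.04 in the vha-19 group, with libraries well below those of the other groups. nuo-1, the flavoprotein subunit that binds NADH, had 286, 290.0 and 292 CPM under vha-6 RNAi, 190.0, 182 and 186 CPM under vha-16 RNAi and 192, 189 and 190.2 CPM under vha-19 RNAi, against 419.7, 408 and 420.4 CPM under control RNAi. Here the 4 groups were ordered with vha-6 libraries between the others and control, and the log2 fold changes were -0.52 ± 0.03, -1.16 ± 0.03 and -1.13 ± 0.03 in the vha-6, vha-16 and vha-19 comparisons.

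The other complex I genes followed the same order of groups except nuo-3. The large iron-sulfur subunit gene nuo-5 was at -0.47, -0.999 and -1.03 in the vha-6, vha-16 and vha-19 comparisons, and nuo-2, a core subunit of the peripheral arm, at -0.32, -1.06 and -1.01. The accessory subunit genes nuo-4 and nuo-6 were at -0.46 and -0.72 under vha-6 RNAi, -1.14 and -1.39 with vha-16 RNAi and -1.09 and -1.34 with vha-19 RNAi. nuo-3, an accessory subunit singled out after its values were seen, had 154, 158 and 161 CPM under vha-6 RNAi, 154, 163 and 157 CPM under vha-16 RNAi and 156, 159.9 and 155 CPM under vha-19 RNAi, against 228, 235.3 and 237 CPM under control RNAi. All 9 vha libraries lay in one narrow range below the controls, with log2 fold changes of -0.57 ± 0.03, -0.56 ± 0.03 and -0.57 ± 0.03; with library totals these were -0.12, -0.04 and -0.03, and only the vha-6 value was called. The annotation places another gene on the same strand over nuo-3, so its counts are uncertain.

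Complex II, which joins the citric acid cycle to the respiratory chain, split between its flavoprotein genes. Of its 5 genes 3 were lower and 1 higher under vha-6 RNAi, and all 5 were lower in the vha-16 and vha-19 groups, with medians of -0.23, -0.81 and -0.85; the vha-6 median turns to 0.22 with library totals. The iron-sulfur subunit gene sdhb-1 had 325, 343 and 343 CPM under vha-6 RNAi, 202, 206 and 200.3 CPM under vha-16 RNAi and 210.0, 211 and 204 CPM under vha-19 RNAi, against 326, 331 and 334 CPM under control RNAi. Its vha-6 and control libraries overlapped, with a log2 fold change of 0.03 ± 0.03 (edgeR adjusted p = 0.377), and it fell by 0.71 ± 0.03 with vha-16 RNAi and by 0.66 ± 0.03 with vha-19 RNAi on the log2 scale. The vha-6 value of sdhb-1 depends on the scaling, and was -0.11 and called lower with DESeq2's size factors. Its unscaled counts were 7622 to 8062 under vha-6 RNAi, against 5559 to 5619 in controls. mev-1, the cytochrome b anchor subunit, had 114, 116 and 114 CPM under vha-6 RNAi, 72.3, 73.0 and 71.0 CPM under vha-16 RNAi and 73.5, 71.4 and 71.9 CPM under vha-19 RNAi, against 137, 132 and 141 CPM under control RNAi. The log2 fold changes of mev-1 were -0.26 ± 0.03, -0.92 ± 0.04 and -0.92 ± 0.04 in the vha-6, vha-16 and vha-19 comparisons, and those of the anchor gene sdhd-1 were -0.23 ± 0.04, -0.81 ± 0.04 and -0.85 ± 0.04; the vha-6 values of both turn with library totals (0.19 and 0.22).

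The flavoprotein is encoded by sdha-1 on the X chromosome and by sdha-2 on chromosome I (8542757 to 8546021 and 10683270 to 10685587 in WBcel235). sdha-1 had 264, 270.3 and 277 CPM under vha-6 RNAi, 123, 129 and 130.0 CPM under vha-16 RNAi and 132, 141 and 141 CPM under vha-19 RNAi, against 199.8, 197 and 198 CPM under control RNAi. sdha-2 had 69.1, 72.4 and 72.7 CPM under vha-6 RNAi, 54.4, 50.2 and 55.0 CPM under vha-16 RNAi and 60.4, 57.0 and 55.4 CPM under vha-19 RNAi, against 240.3, 239 and 239.6 CPM under control RNAi. In controls the counts of the pair were close, whereas in every vha library sdha-1 stood well above sdha-2. sdha-1 was higher under vha-6 RNAi, at 0.45 ± 0.03, and lower in the vha-16 group, at -0.64 ± 0.04, and in the vha-19 group, at -0.52 ± 0.04 (0.02 and not called with library totals). sdha-2 fell by 1.75 ± 0.04, 2.17 ± 0.04 and 2.06 ± 0.04 on the log2 scale in the same comparisons, which were the largest falls among the subunit genes of the 34, with edgeR adjusted p of 1.21e-29, 3.69e-32 and 1.33e-31.

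Complex III split among its core protein genes. Of its 6 genes 5 were lower and 1 higher under vha-6 RNAi, and all 6 were lower in the vha-16 and vha-19 groups, with medians of -0.21, -1.14 and -1.12; the vha-6 median turns to 0.24 with library totals. Its Rieske iron-sulfur protein gene isp-1 had 423, 422 and 445 CPM under vha-6 RNAi, 266, 273 and 269 CPM under vha-16 RNAi and 273, 271 and 269 CPM under vha-19 RNAi, against 457, 451 and 464 CPM under control RNAi. The vha-6 libraries lay just below the controls and the others far below, with log2 fold changes of -0.09 ± 0.03, -0.76 ± 0.03 and -0.76 ± 0.03; the vha-6 value is 0.36 with library totals and 0.11 where genes under a mean of 5 CPM were left out. cyc-1, for cytochrome c1, had 427, 421 and 416 CPM under vha-6 RNAi, 235.3, 234 and 228 CPM under vha-16 RNAi and 234, 243 and 239 CPM under vha-19 RNAi, against 543, 537 and 529 CPM under control RNAi. The log2 fold changes were -0.35 ± 0.03, -1.21 ± 0.03 and -1.17 ± 0.03 for cyc-1 and -0.31 ± 0.03, -1.08 ± 0.03 and -1.07 ± 0.03 for the core protein gene ucr-1 in the vha-6, vha-16 and vha-19 comparisons, and the vha-6 values turn with library totals (0.10 and 0.14).

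A further 3 core protein genes are paralogues. ucr-2.1 (X, 12018429 to 12021206) had 233, 236 and 231 CPM under vha-6 RNAi, 124, 123 and 124 CPM under vha-16 RNAi and 123, 117 and 122 CPM under vha-19 RNAi, against 149.5, 147 and 157 CPM under control RNAi. ucr-2.2 (X, 15173904 to 15178145) had 104.4, 107 and 109 CPM under vha-6 RNAi, 49.8, 49.2 and 50.8 CPM under vha-16 RNAi and 50.7, 49.9 and 50.9 CPM under vha-19 RNAi, against 115, 114 and 117 CPM under control RNAi. ucr-2.3 (III, 879860 to 881458) had 67.6, 69.9 and 70.2 CPM under vha-6 RNAi, 57.2, 55.3 and 56.4 CPM under vha-16 RNAi and 54.5, 56.1 and 54.3 CPM under vha-19 RNAi, against 156, 152 and 154 CPM under control RNAi. ucr-2.1 was thus highest under vha-6 RNAi and lowest under the other RNAi treatments, ucr-2.2 stayed near control under vha-6 RNAi, and ucr-2.3 was low in every vha library. The log2 fold changes of ucr-2.1 were 0.63 ± 0.03, -0.29 ± 0.04 and -0.32 ± 0.04, of which the vha-16 and vha-19 values turn to 0.23 and 0.22 with library totals. Those of ucr-2.2 were -0.11 ± 0.04, -1.21 ± 0.04 and -1.19 ± 0.04, of which the vha-6 value turns to 0.34 with library totals and to 0.09 without the genes under 5 CPM, and those of ucr-2.3 were -1.15 ± 0.04, -1.45 ± 0.04 and -1.49 ± 0.04.

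Of the pair of cytochrome c genes, cyc-2.2 was higher in every vha group. cyc-2.1, the more abundant by far per length, had 421, 412 and 421 CPM under vha-6 RNAi, 321, 325 and 327 CPM under vha-16 RNAi and 313, 317 and 317 CPM under vha-19 RNAi, against 438, 439.7 and 466 CPM under control RNAi. cyc-2.2 had 31.1, 30.5 and 31.1 CPM under vha-6 RNAi, 29.9, 31.3 and 31.7 CPM under vha-16 RNAi and 34.01, 35.6 and 33.3 CPM under vha-19 RNAi, against 15.5, 15.5 and 15.6 CPM under control RNAi. The control libraries of cyc-2.2 lay close together and every vha library far above them. cyc-2.2 was higher by 0.99 ± 0.06 under vha-6 RNAi, 0.995 ± 0.06 with vha-16 RNAi and 1.14 ± 0.06 with vha-19 RNAi (SE, log2), with edgeR adjusted p of 3.49e-17, 2.30e-17 and 2.73e-19. cyc-2.1 was at -0.10 ± 0.03, -0.47 ± 0.03 and -0.50 ± 0.03 in the same comparisons, and these turn to 0.35, 0.05 and 0.04 with library totals, where the vha-16 and vha-19 values are not called. The vha-6 value is 0.10 where genes under a mean of 5 CPM were left out.

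The assembly factors of complex IV, at low levels, were lower in 3 of 4 under vha-6 RNAi and in all 4 in the vha-16 and vha-19 groups, with medians of -1.17, -1.59 and -1.56. Their roles are known from the yeast and mammalian counterparts. cox-17, a copper chaperone, had 1.07, 1.32 and 0.809 CPM under vha-6 RNAi, 0.523, 0.644 and 0.683 CPM under vha-16 RNAi and 1.19, 0.872 and 1.19 CPM under vha-19 RNAi, against 2.99, 3.07 and 3.46 CPM under control RNAi. Despite its low level no vha library reached a control library. Its log2 fold changes were -1.57 ± 0.19, -2.35 ± 0.22 and -1.54 ± 0.19 with wide errors, and vha-16 libraries lay below all vha-19 libraries. cox-10, which acts in heme A synthesis, had 13.5, 13.9 and 12.99 CPM under vha-6 RNAi, 8.58, 8.21 and 8.15 CPM under vha-16 RNAi and 8.24, 7.89 and 8.34 CPM under vha-19 RNAi, against 14.01, 13.6 and 11.9 CPM under control RNAi. Its vha-6 and control libraries overlapped, with a log2 fold change of 0.03 ± 0.08 (edgeR adjusted p = 0.729), and it was at -0.67 ± 0.08 with vha-16 RNAi and -0.69 ± 0.08 with vha-19 RNAi, neither called with library totals (-0.15 each). Unscaled counts of cox-10 were 305 to 326 under vha-6 RNAi, against 200 to 239 in controls. cox-15, also of heme A synthesis, was at -1.05 ± 0.05, -1.52 ± 0.05 and -1.58 ± 0.05, and cox-11, of copper delivery, at -1.29 ± 0.06, -1.66 ± 0.06 and -1.71 ± 0.06.

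The structural subunits of complex IV and further genes of the pathway appear in the table under older names. The current names of 12 further genes fit the name rule, and all 12 were lower in each comparison with control, with medians of -0.40, -1.11 and -1.06; with library totals 2 were lower and 5 higher under vha-6 RNAi (median 0.05). cco-2, now cox-5A, had 502, 509.7 and 504 CPM under vha-6 RNAi, 317, 318 and 316.01 CPM under vha-16 RNAi and 319.6, 329 and 309 CPM under vha-19 RNAi, against 656, 659 and 701 CPM under control RNAi. W09C5.8, now cox-4, had 466, 459 and 464 CPM under vha-6 RNAi, 316.2, 311 and 304 CPM under vha-16 RNAi and 294, 294 and 294 CPM under vha-19 RNAi, against 488, 504 and 536 CPM under control RNAi. H28O16.1, now atp-1, the alpha subunit of the ATP synthase, had 2404, 2431 and 2421 CPM under vha-6 RNAi, 1196, 1151 and 1087 CPM under vha-16 RNAi and 1193, 1203 and 1193 CPM under vha-19 RNAi, against 2918, 2858 and 3104 CPM under control RNAi. All 3 had vha-6 libraries between the controls and the other vha groups. Their log2 fold changes in the vha-6, vha-16 and vha-19 comparisons were -0.41 ± 0.03, -1.08 ± 0.03 and -1.07 ± 0.03 for cox-5A, -0.14 ± 0.03, -0.71 ± 0.03 and -0.79 ± 0.03 for cox-4 and -0.29 ± 0.03, -1.37 ± 0.03 and -1.31 ± 0.03 for atp-1, and the vha-6 values turn to 0.04, 0.31 and 0.16 with library totals.

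Complex V, the ATP synthase, had 7 of 9 genes lower and 1 higher under vha-6 RNAi, and all 9 lower under vha-16 and vha-19 RNAi. Its medians were -0.40, -1.22 and -1.15, and the vha-6 median turns to 0.05 with library totals. atp-2, the catalytic beta subunit (III, 5228417 to 5230536), had 2272, 2291 and 2302 CPM under vha-6 RNAi, 1098, 1089 and 1077 CPM under vha-16 RNAi and 1140.3, 1159.6 and 1171 CPM under vha-19 RNAi, against 3027, 3027 and 3146 CPM under control RNAi. The vha-16 and vha-19 libraries held less than any vha-6 library, and the vha-6 libraries less than any control library. The log2 fold changes were -0.42 ± 0.03, -1.50 ± 0.03 and -1.41 ± 0.03 with edgeR adjusted p of 2.20e-15, 5.36e-31 and 3.00e-30, and the vha-6 value is 0.02 with library totals.

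The stalk subunit genes showed the same order, with vha-16 and vha-19 RNAi below vha-6 RNAi. atp-3, for the subunit that confers oligomycin sensitivity, was at -0.11, -0.87 and -0.83 in the vha-6, vha-16 and vha-19 comparisons. atp-4, a coupling factor, was at -0.40, -1.096 and -1.09, and atp-5, the d subunit, at -0.32, -1.22 and -1.15. The vha-6 values of these 3 turn with library totals, to 0.33, 0.05 and 0.13, and that of atp-3 is 0.08 and called where genes under a mean of 5 CPM were left out. hpo-18, the epsilon subunit of the central stalk, was at -0.81, -1.42 and -1.34.

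Subunits b and g are each encoded by an autosomal and an X-linked gene, and in both pairs the autosomal gene was lower in every vha group. asb-1, a form of subunit b known from the germ line (III, 4594543 to 4595821), had 152, 153 and 151 CPM under vha-6 RNAi, 133, 126 and 121 CPM under vha-16 RNAi and 129, 132 and 122 CPM under vha-19 RNAi, against 451, 445 and 442 CPM under control RNAi. asb-2 (X, 4469766 to 4471476) had 536, 536 and 547 CPM under vha-6 RNAi, 228, 245 and 222 CPM under vha-16 RNAi and 244, 253 and 247 CPM under vha-19 RNAi, against 415, 389 and 414 CPM under control RNAi. asb-1 was low in all vha libraries, whereas asb-2 was above control under vha-6 RNAi and below it under the other RNAi treatments. The log2 fold changes were -1.55 ± 0.04, -1.82 ± 0.04 and -1.81 ± 0.04 for asb-1 and 0.41 ± 0.03, -0.81 ± 0.04 and -0.71 ± 0.04 for asb-2. asg-1 (I, 8692946 to 8693468) had 88.7, 87.9 and 85.9 CPM under vha-6 RNAi, 76.2, 75.8 and 69.3 CPM under vha-16 RNAi and 74.6, 75.5 and 76.4 CPM under vha-19 RNAi, against 195, 189.6 and 193 CPM under control RNAi. asg-2 (X, 6841258 to 6842121) had 145, 155 and 141 CPM under vha-6 RNAi, 71.5, 72.8 and 67.6 CPM under vha-16 RNAi and 73.9, 77.2 and 75.7 CPM under vha-19 RNAi, against 144, 134 and 141 CPM under control RNAi. The vha-6 and control libraries of asg-2 overlapped, and its value of 0.08 ± 0.04 was not called (edgeR adjusted p = 0.0619; 0.52 and called with library totals). asg-2 was at -0.98 ± 0.04 and -0.88 ± 0.04 in the vha-16 and vha-19 groups, and asg-1 was at -1.14 ± 0.04, -1.38 ± 0.04 and -1.35 ± 0.04 in the 3 comparisons.

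**Figure D3:**
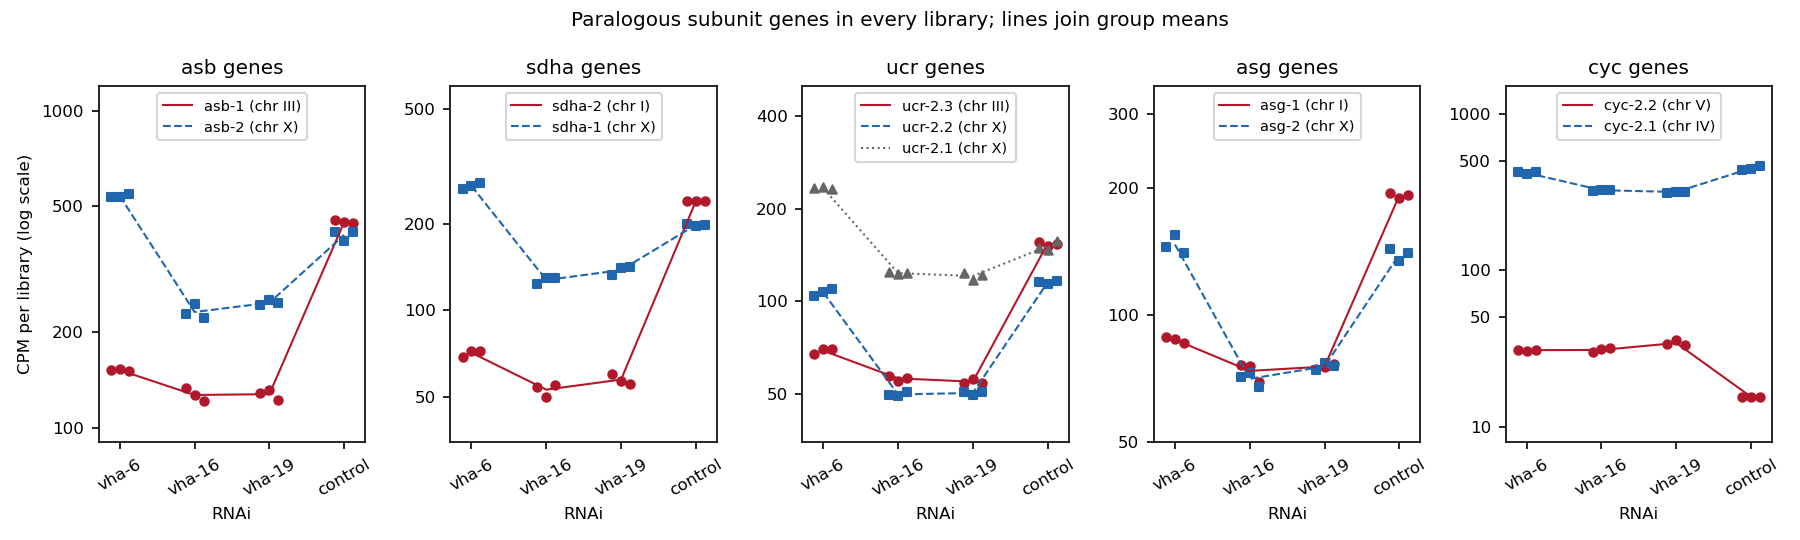
CPM of paralogous subunit genes in each of the 12 libraries (vertical axes, log scale), by RNAi group, with lines through the group means. The autosomal genes asb-1, sdha-2, ucr-2.3 and asg-1 are low in every vha group, the X-linked genes asb-2, sdha-1 and ucr-2.1 are highest under vha-6 RNAi, and cyc-2.2 is higher in every vha group than in control; the low vha-16 and vha-19 values of ucr-2.1, the vha-19 value of sdha-1 and the cyc-2.1 values turn with library totals.

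Ratios of paralogue counts within a library do not depend on scaling. The log2 ratio of asb-1 to asb-2 was -1.83 ± 0.02 under vha-6 RNAi, -0.87 ± 0.09 with vha-16 RNAi and -0.96 ± 0.05 with vha-19 RNAi, against 0.14 ± 0.05 under control RNAi (SD, n = 3 each). That of sdha-1 to sdha-2 was 1.92 ± 0.02, 1.26 ± 0.09 and 1.26 ± 0.12 in the same vha groups, against -0.27 ± 0.01 in control. No vha group overlapped control in either ratio, and the more abundant member of each pair by count differed between every vha group and control. The log2 ratio of asg-1 to asg-2 was -0.75 ± 0.06 under vha-6 RNAi, 0.06 ± 0.03 with vha-16 RNAi and -0.00 ± 0.03 with vha-19 RNAi, against 0.47 ± 0.03 under control RNAi.

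The ratio of ucr-2.2 to ucr-2.3 was 0.63 ± 0.01, -0.17 ± 0.03 and -0.12 ± 0.04 in the vha-6, vha-16 and vha-19 groups, against -0.42 ± 0.02 under control RNAi. The ratio of ucr-2.1 to ucr-2.2 was 1.12 ± 0.04, 1.31 ± 0.02 and 1.26 ± 0.02, against 0.39 ± 0.03. The ratio of cyc-2.1 to cyc-2.2 was 3.76 ± 0.001, 3.39 ± 0.03 and 3.20 ± 0.05, against 4.85 ± 0.04. All 6 ratios separated each vha group from control without overlap, with an exact two-sided permutation p of 0.1 in each of the 18 tests, the smallest that 3 libraries against 3 allow, and 0.109 when adjusted over the 36 tests made. Reads that map equally well to several places are kept out of the gene counts and made up 7.62% to 9.54% of all counts in the table in vha libraries, against 15.1% to 15.4% in controls. Their part in these ratios was not tested.

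Direct comparison of the treatments put vha-16 and vha-19 RNAi well below vha-6 RNAi. Between vha-16 and vha-6 RNAi 32 of the 34 genes were lower and the other 2 were not called, where 31.2% of all genes were lower and 31.6% higher, with a median of -0.69 against -0.01 for all genes. Between vha-19 and vha-6 RNAi 31 were lower and 1 higher, where 29% and 29.5% of all genes were, with a median of -0.66. With library totals the counts lower were 32 and 31, where 25.8% and 21.6% of all genes were. A fall of 2-fold or more was called for 6 genes in the first of these comparisons (7.39% of all genes) and 3 in the second (6.29%). With library totals it was called for 5 (6.68% of all genes) and 1 (5.62%). nuo-3 and cyc-2.2 were not called in the first, and nuo-3 and cox-17 in the second.

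The largest of these falls was that of asb-2 in both comparisons. asb-2 had a log2 fold change against vha-6 RNAi of -1.22 ± 0.04 with vha-16 RNAi and -1.12 ± 0.04 with vha-19 RNAi (SE), and atp-2 of -1.07 ± 0.03 and -0.98 ± 0.03. gas-1 was at -1.13 ± 0.04 and -1.05 ± 0.04, and sdha-1 at -1.08 ± 0.03 and -0.97 ± 0.03. The genes with low levels in every vha group differed less here: asb-1 was at -0.26 ± 0.04 and -0.25 ± 0.04, asg-1 at -0.25 ± 0.04 and -0.21 ± 0.04, and ucr-2.3 at -0.30 ± 0.04 and -0.33 ± 0.04.

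vha-19 and vha-16 RNAi differed little. Between them 4 of the 34 genes were higher under vha-19 RNAi and the other 30 were not called, where 7.56% of all genes were higher and 9.81% lower, and the median was 0.04. Those higher were sdha-1 (0.11 ± 0.04), cyc-2.2 (0.15 ± 0.05), cox-17 (0.81 ± 0.26) and atp-2 (0.09 ± 0.03), with edgeR adjusted p of 0.0207 to 0.0312. Without vha-16 RNAi replicate 1 the count was 2. A p that missed the threshold does not show that the other 30 were equal, and their log2 differences ranged from -0.07 to 0.12.

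Position in the genome went with the vha-6 response, as was noticed after the values were seen. Of the 34 genes 6 lie on the X chromosome and 28 on autosomes, and no member pair lies within 20 kb. Under vha-6 RNAi against control, the X-linked genes had a median log2 fold change of 0.24, with 3 higher, 1 lower and 2 not called, and the autosomal genes a median of -0.44, with 1 higher, 25 lower and 2 not called; with library totals the medians are 0.69 and 0.01. All 2362 X-linked genes tested had a median of 0.47, with 55.0% higher and 30.1% lower. All 14560 autosomal genes had a median of 0.16, with 46.7% higher and 43.3% lower. Under vha-16 RNAi the X-linked and autosomal members were at -0.90 and -1.15, where all such genes were at 0.51 and 0.12. Under vha-19 RNAi the members were at -0.80 and -1.11, and all such genes at 0.47 and 0.11.

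Between vha-16 and vha-6 RNAi the order was the other way. The 6 X-linked members lay between -1.22 and -0.92 with a median of -1.09, and the 28 autosomal members had a median of -0.67, whereas all X-linked genes had a median of 0.05 and all autosomal genes -0.02. Between vha-19 and vha-6 RNAi the medians were -1.01 and -0.62 for members and 0.02 and -0.01 for all genes. These values are a description, with no test.

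**Figure D4:**
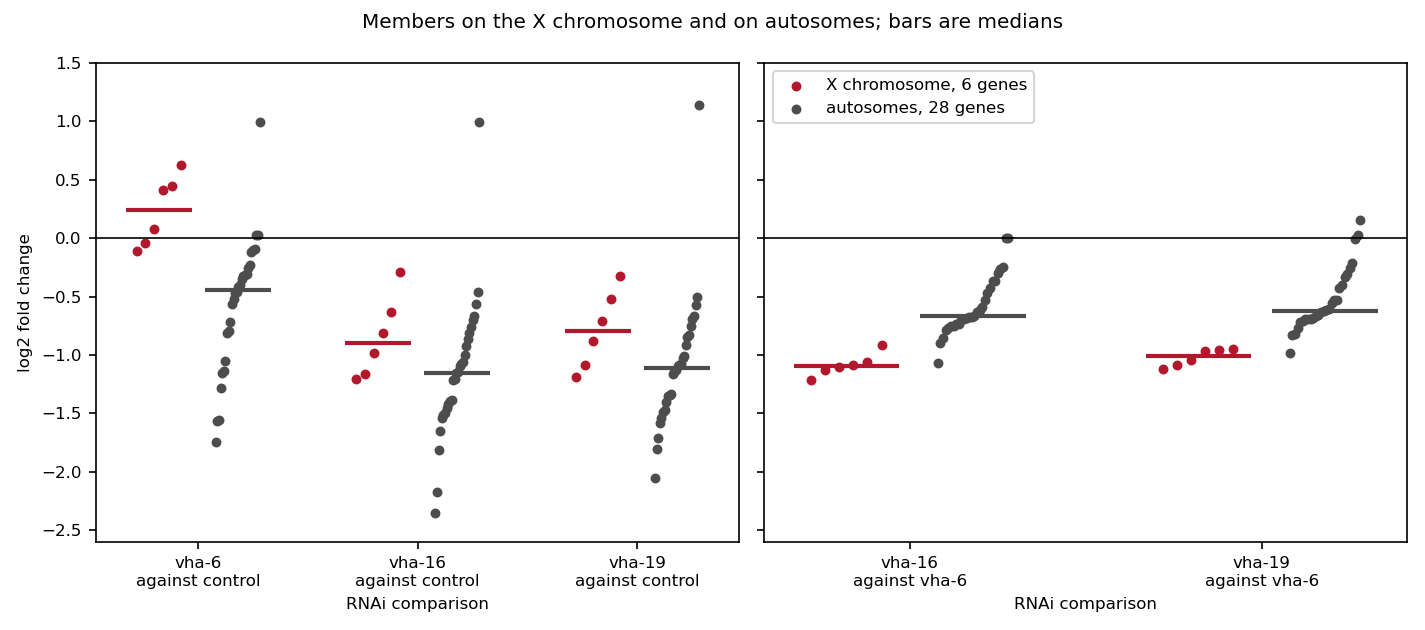
Log2 fold change (vertical axis) of the 6 X-linked and 28 autosomal members in each comparison with control (left panel) and of vha-16 and vha-19 RNAi against vha-6 RNAi (right panel); each point is a gene and bars are medians. The X-linked members lie around and above 0 under vha-6 RNAi, with a median of 0.24 against -0.44 on autosomes, and are the lower set when the other RNAi treatments are compared with vha-6 RNAi; with library totals the vha-6 medians are 0.69 on X and 0.01 on autosomes.

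Markers of the tissues moved with these groups. Of 28 oocyte and germ-line markers all were lower in each vha group (27 with library totals), with medians of -2.604, -2.63 and -2.57 in the vha-6, vha-16 and vha-19 groups, and their summed level was 3315 to 3351 CPM under vha-6 RNAi, 2926 to 3027 CPM under vha-16 RNAi and 3064 to 3165 CPM under vha-19 RNAi, against 20478 to 21019 CPM under control RNAi. Of 21 sperm markers 20, 20 and 21 were higher, and the sums were 966 to 989 CPM under vha-6 RNAi, 973 to 992 CPM under vha-16 RNAi and 1010.4 to 1057 CPM under vha-19 RNAi, against 377 to 403 CPM under control RNAi. No marker of any list was at 0 in all 3 libraries of a group. In bulk samples fewer cells of a type and less RNA per cell cannot be told apart. The worms were at the L4 to young adult stage, and whether the groups differed within that range was not tested. The part of these tissues in the changes of asb-1, sdha-2, ucr-2.3, asg-1 and the other members was not tested.

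Body-wall muscle markers moved with the difference between treatments. Of 15 such markers 10 were higher and 4 lower under vha-6 RNAi than in controls, 2 higher and 12 lower under vha-16 RNAi, and 2 higher and 11 lower under vha-19 RNAi; with library totals 11, 5 and 5 were higher and 1, 8 and 8 lower. Between vha-16 and vha-6 RNAi 14 of the 15 were lower and 0 higher, with a median of -0.95, and between vha-19 and vha-6 RNAi the counts were the same with a median of -0.83. The sums were 13465 to 13764 CPM under vha-6 RNAi, 6609 to 6785 CPM under vha-16 RNAi and 6915 to 7193 CPM under vha-19 RNAi, against 10889.7 to 11739 CPM under control RNAi. The troponin gene tnt-2 was at 677 ± 10.9, 232 ± 6.93 and 264 ± 2.52 CPM in the vha-6, vha-16 and vha-19 groups, against 908 ± 37.1 CPM under control RNAi. With TMM it was thus below control under vha-6 RNAi too, unlike the 10 of 15 markers that were higher there. With library totals its vha-6 level was about even with control, so this fall depends on the scaling. Their part in the lower pathway transcripts under vha-16 and vha-19 RNAi was not tested.

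All 7 pharyngeal muscle markers were higher in each vha group, with sums of 1007 to 1032 CPM under vha-6 RNAi, 789 to 904 CPM under vha-16 RNAi and 765 to 829.8 CPM under vha-19 RNAi, against 385 to 443 CPM under control RNAi. Of 20 neuronal markers 18, 18 and 17 were higher in the vha-6, vha-16 and vha-19 groups, with sums of 1267 to 1289 CPM under vha-6 RNAi, 1743 to 1802 CPM under vha-16 RNAi and 1596 to 1613 CPM under vha-19 RNAi, against 749 to 766 CPM under control RNAi. Hypodermal markers numbered 10 higher and 3 lower of 13 in each vha group. The sums were 3304 to 3432 CPM under vha-6 RNAi, 1879.8 to 2052 CPM under vha-16 RNAi and 2508 to 2598 CPM under vha-19 RNAi, against 3309 to 3519.9 CPM under control RNAi. Their unscaled shares of gene counts were 0.353%, 0.216% and 0.286%, against 0.265% in controls. On those shares the vha-6 and vha-19 groups lay above control. Intestinal markers, yolk protein genes included, numbered 7 higher and 7 lower of 14 under vha-6 RNAi and 5 and 9 in the vha-16 and vha-19 groups; with library totals the vha-6 counts were 8 and 6. The sums were 18328 to 18994 CPM under vha-6 RNAi, 7909.9 to 8372 CPM under vha-16 RNAi and 6992 to 7664 CPM under vha-19 RNAi, against 89576 to 91091 CPM under control RNAi.

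Most other genes of the pathway were lower as well. Of 31 further subunit genes outside the name rule 29, 31 and 31 were lower in the vha-6, vha-16 and vha-19 groups and the rest were not called, with medians of -0.55, -1.17 and -1.13; with library totals 18 were lower and 9 higher under vha-6 RNAi. nduf-2.2, a core subunit of complex I, was at 72.3 ± 1.12, 57.4 ± 2.33 and 58.3 ± 1.204 CPM, against 175 ± 1.57 CPM in controls. Of 13 assembly factors outside the cox names 12 were lower in each, with medians of -0.97, -1.27 and -1.23, and 10, 11 and 11 with library totals. The remaining gene was nuaf-1, named after its values were seen, which was not called under vha-6 RNAi (-0.04) and higher in the vha-16 (0.23) and vha-19 groups (0.15). Its vha-6 value turns positive with library totals. With DESeq2's size factors no gene of the list was called higher. bcs-1, an AAA protein that inserts the Rieske protein in yeast, was at -1.26, -1.71 and -1.66.

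The mitochondrial genome's own protein genes fell in all 3 knockdowns as well. Of the 11 tested all were lower in each comparison with control, with medians of -0.91, -1.11 and -1.14. ctb-1, cytochrome b of complex III, was at 588 ± 3.66 CPM under vha-6 RNAi, 766 ± 10.4 with vha-16 RNAi and 733 ± 54.7 with vha-19 RNAi, against 2371 ± 42.4 under control RNAi. Between vha-16 and vha-6 RNAi 4 of the 11 were higher and 7 lower, with a median of -0.21, set against -0.69 for the 34 nuclear genes; the difference between the lists was not tested. These transcripts are measured here after polyA enrichment.

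The citric acid cycle, which feeds electrons to the chain, showed the same order of treatments. Of 23 genes of the cycle and of pyruvate dehydrogenase 16 were lower and 5 higher under vha-6 RNAi, and all 23 were lower in the vha-16 and vha-19 groups, with medians of -0.30, -1.05 and -0.94; with library totals 9 were lower and 13 higher under vha-6 RNAi (median 0.14). mdh-2, mitochondrial malate dehydrogenase, was at 789 ± 21.5, 362 ± 6.95 and 381 ± 19.6 CPM, against 1179.8 ± 19.8 CPM. sucg-1, for the GTP-specific succinyl-CoA ligase subunit, was at -1.73, -2.198 and -2.17. Of 8 coenzyme Q synthesis genes 7 were lower and 1 was not called in each vha group, but with library totals 1, 3 and 3 were lower and 4, 1 and 2 higher in the vha-6, vha-16 and vha-19 groups. coq-5 was at -1.03, -1.71 and -1.72.

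The carrier list was mixed, whereas cristae genes were mostly lower. ant-1.4 and ant-1.3, adenine nucleotide translocases that exchange ADP and ATP, were higher: ant-1.4 was at 55.4 ± 1.39, 43.99 ± 1.11 and 45.5 ± 1.80 CPM in the vha-6, vha-16 and vha-19 groups, against 8.996 ± 0.425 CPM, and ant-1.3 at 2.198, 1.83 and 1.93 log2 against control. The porin gene vdac-1 was at -0.56, -1.397 and -1.38, and mai-2, an ATP synthase inhibitor, at -0.78, -1.38 and -1.41. In the list of 8 carriers, inhibitors and porin, 4 were higher and 3 lower under vha-6 RNAi, 2 and 4 under vha-16 RNAi, and 3 and 4 under vha-19 RNAi. The medians were 0.21, -0.23 and -0.23. With library totals 5, 4 and 5 were higher and 3 lower in each, and the vha-16 and vha-19 medians turn positive. The difference between the lists was not tested. Of 7 cristae genes 6, 7 and 7 were lower, with the prohibitin gene phb-2 at -0.95, -1.85 and -1.80. Of 6 other quinone-linked dehydrogenases 4 were lower and 2 higher under vha-6 RNAi, 6 were lower with vha-16 RNAi and 5 with vha-19 RNAi, and dhod-1, for dihydroorotate dehydrogenase, was at -1.38, -1.65 and -1.59.

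Counts of some members are uncertain because exons of another gene overlap theirs. On the other strand this holds for gas-1, nuo-5, nuo-6, cyc-1, ucr-2.2, ucr-2.3, cox-15 and asg-1, and on the same strand for nuo-1, nuo-3 and atp-4. The strand setting of the counting is not given in the sources used here, so reads of such pairs cannot be told apart.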

How the data were processed

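The authors' deposited table holds whole-number counts of reads per gene for 12 libraries, 3 in each of 4 RNAi groups. Per the submitters' processing notes the tools were STAR 2.73a and edgeR 3.24.3 and the builds WBcel235 and ce11; no source used here names the counting program or its strand setting. The 3 entries that name no gene held 9.92% to 16.9% of all counts and were left out. Gene counts were 21981854 to 22553227 per library, so the depth differed little.

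From these counts, genes were filtered with filterByExpr (17043 of 18467 tested), scaled by TMM and fitted over all 12 libraries with edgeR 4.0.16 quasi-likelihood models in R 4.3.3. P-values were adjusted by Benjamini-Hochberg over all genes tested, with calls at an adjusted p under 0.05. SE is that of the log2 fold change, derived as its absolute value over the square root of the quasi-likelihood F statistic. Paralogue ratios are log2((count + 0.5)/(count + 0.5)), with exact two-sided permutation tests. Positions and exon lengths are from Ensembl release 115, and figures were drawn with matplotlib 3.10.9. The tests were checked on simulated counts in which few genes changed, equally up and down. Such counts cannot check the choice of scaling here, where most genes were called.

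Values of every library are given for the members of each complex with the largest and smallest absolute log2 fold change against control, those called in opposite directions or not called against control, paralogues and a fixed set of catalytic and redox core genes; of each other list up to 4 genes with the smallest p could be named. nuo-3 and nuaf-1 were added after their values were seen. The members and lists were chosen with earlier results of these data known. The main fit did not pair libraries by replicate number. Same-numbered libraries of different groups deviated with correlations of -0.035 to 0.050 over 18 pairs, and differently numbered ones with -0.026 to 0.031 over 36. Correlations this weak cannot decide whether the numbers pair the libraries. The alternatives were other scalings, filters, tools (limma-voom 3.58.1, DESeq2 1.42.0), a 1.5-fold threshold, a replicate block, each pair of groups alone and leaving out each library.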

Additional observations from a re-analysis of the deposited data

Results flagged for a closer look

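Reads assigned to no gene feature lie outside the gene measurements. Their mean share of all counts was 0.995% in vha-6 RNAi libraries, 1.296% in vha-16 RNAi libraries and 1.27% in vha-19 RNAi libraries, against 0.693% in control RNAi libraries (3 libraries each). They were picked out because each vha group lay above the control level.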

How the results depend on the processing

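The alternatives changed the scaling, filter, tool, design and libraries of the fits. Scaling by library totals changed the counts of calls most in the vha-6 comparison with control. There 18 members were higher and 12 lower, where 58.1% and 32.8% of all genes were. The median of all 34 was 0.11, and those of complexes II, III and V were 0.22, 0.24 and 0.050. The log2 fold changes that turned positive there were gas-1 (0.40), nuo-2 (0.12), mev-1 (0.19), sdhd-1 (0.22), cyc-1 (0.10), isp-1 (0.36), ucr-1 (0.14), ucr-2.2 (0.34), cyc-2.1 (0.35), atp-2 (0.025), atp-3 (0.33), atp-4 (0.050) and atp-5 (0.13). With the same totals 2 members were higher under vha-16 RNAi (59.4% of all genes), where ucr-2.1 was at 0.23 and cyc-2.1 at 0.055. Under vha-19 RNAi 2 were higher (59.6% of all genes), where sdha-1 was at 0.022, ucr-2.1 at 0.22 and cyc-2.1 at 0.040. Also with totals, 2 members were higher in vha-19 than in vha-6 RNAi (37.5% of all genes), with nuo-3 at 0.090. Between vha-19 and vha-16 RNAi 8 were higher (9.71% of all genes). DESeq2's size factors moved the median of all genes by -0.14, -0.19 and -0.17 in the vha-6, vha-16 and vha-19 comparisons with control. Then 7 (26.2% of all genes), 25 (29.1%) and 25 (28.9%) members fell 2-fold or more. Between vha-19 and vha-6 RNAi 5 did (6.6% of all genes), against 3 with TMM (6.29%). Set against the median of all genes, a difference that no scaling can change, the median of the 34 members ranged over the filters, tools and groups fitted from -0.61 to -0.14 for vha-6, -1.36 to -0.95 for vha-16 and -1.32 to -0.91 for vha-19 RNAi against control, the values nearest 0 being those without genes under a mean of 5 CPM.

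Where genes under a mean of 5 CPM were left out, the log2 fold changes moved by a median of 0.20, 0.18 and 0.18 in the 3 comparisons with control. Of the members 12 were then higher under vha-6 RNAi (47.6% of all genes), with gas-1 at 0.16, isp-1 at 0.11, ucr-2.2 at 0.091, cyc-2.1 at 0.10 and atp-3 at 0.084. In that setting nuo-3 was at -0.014 and cyc-2.2 at -0.011 between vha-16 and vha-6 RNAi. With DESeq2's size factors and with its Wald test, sdhb-1 was at -0.11, cox-10 at -0.11 and asg-2 at -0.059 in the vha-6 comparison with control, nuo-3 was at -0.053 and cyc-2.2 at -0.050 between vha-16 and vha-6 RNAi, and cox-17 was at -0.012 between vha-19 and vha-6 RNAi, where the Wald test called 0 members higher. Of these values only that of sdhb-1 was called, as lower. TMM without yolk, germ-line, sperm, col and msp genes gave gas-1 at 0.0088 (vha-6 RNAi against control), nuo-3 at -0.042 and cyc-2.2 at -0.039 (vha-16 against vha-6 RNAi). It also gave 7 members higher in vha-19 than in vha-16 RNAi (9.26% of all genes). Without a filter nuo-3 was at -0.0011 between vha-16 and vha-6 RNAi, and with the vha-6 and control groups fitted alone gas-1 was at 0.026. A threshold of 1.5-fold left 2 members higher and 10 lower under vha-6 RNAi, 0 higher in vha-19 than in vha-6 RNAi and 1 higher in vha-19 than in vha-16 RNAi. The cause of these shifts was not tested.

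Leaving out each library in turn gave 0 to 1 members higher in vha-19 than in vha-6 RNAi (0 without vha-19 RNAi replicate 2) and 2 to 6 higher in vha-19 than in vha-16 RNAi (2 without vha-16 RNAi replicate 1). Values near 0 crossed it: cox-10 ranged from -0.043 to 0.069 (vha-6 RNAi against control), cox-17 from -0.14 to 0.21 and nuo-3 from -0.034 to 0.010 (vha-19 against vha-6 RNAi), and nuo-3 from -0.049 to 0.018 and cyc-2.2 from -0.043 to 0.011 (vha-16 against vha-6 RNAi).

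With the replicate number as a block the counts higher and lower were 4 and 26 for vha-6, 1 and 33 for vha-16 and 1 and 33 for vha-19 RNAi against control, as without it, and no call of a member changed. Of the 12 libraries 3 correlated best on average with those of their own number, which does not exclude a pairing.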
